A study of Arabidopsis thaliana with 12 samples.

Results

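The gene-by-gene difference between the glucose responses of ein2-5 and Col-0 seedlings was measured: for each gene, the change with glucose in ein2-5 minus the change with glucose in Col-0. All 19522 genes of the deposited table and all 12 libraries entered, so nothing was selected within that table. The material was whole seedlings of Arabidopsis thaliana, either Col-0, the wild type, or ein2-5, an EIN2 mutant, and messenger RNA was sequenced. All had grown for 4 days in liquid half-strength medium lacking glucose, under 12 h of light and 12 h of dark, and then received either 15 mM glucose or none for 2 h. There were n = 3 libraries in each of 4 groups, written Col-0 −Glc, Col-0 +Glc, ein2-5 −Glc and ein2-5 +Glc. The glucose-free start was shared by every group, and only 1 mutant allele was used. Whether replicate libraries stem from separate cultures is not in the labels. The p-values therefore rest on library-to-library spread, some of which may be technical.

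EIN2 is a membrane protein that relays ethylene perception to the transcription factors of the response, and seedlings without its function are insensitive to the gas. Sugar supply sets the balance between growth and reserve use in seedlings: the SnRK1 kinase switches on breakdown genes when energy is short, and the TOR kinase favours ribosome production when glucose returns. Glucose and ethylene are known to act against each other in Arabidopsis seedlings.

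Levels are given in CPM, reads scaled to a fixed library total, as the authors deposited them. Responses and their differences are on the log2(CPM + 1) scale, ± SE, which understates changes of genes with few reads. A positive difference means that the gene fell less, or rose more, in ein2-5 than in Col-0, and a negative difference the reverse. Adjusted p-values come from limma, fitted to all genes and libraries at once and adjusted over 19522 genes by the Benjamini-Hochberg method, with 0.05 as the threshold. Between 11470134 and 17461274 reads per library lay behind the values, and 3 reads corresponded to 0.172 to 0.262 CPM. The EIN2 transcript was looked at first, since it bears on the genotype labels. It stood at 137, 125 and 125 CPM in Col-0 −Glc and, for Col-0 +Glc, at 116, 118 and 105 CPM. The mutant libraries held 60.2, 43.4 and 56.8 CPM without glucose and 50.3, 49.0 and 48.5 CPM with it, below every Col-0 library. The genotypes differed by −1.27 ± 0.107 without and −1.18 ± 0.107 with glucose (limma adjusted p = 1.61e-06 and 3.44e-06), where 35.3% of all genes were higher and 16% lower in ein2-5 without glucose, and 26.1% and 20.9% with it. Its glucose responses did not differ past the threshold (0.09 ± 0.151, limma adjusted p = 0.725).

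Libraries of a group differed in reads from seed genes. The summed level of 14 seed storage and late embryo genes was 164.7 CPM in Col-0 −Glc replicate 1 against 1.8 and 6.1 CPM in the other libraries of that group, and 2.1 to 3.6 CPM in Col-0 +Glc. It was 784.6 to 1363.8 CPM in ein2-5 −Glc. In ein2-5 +Glc it was 145.9 CPM in replicate 1 but 2217.9 and 3464.5 CPM in replicates 2 and 3. Of the 14 genes, 0, 5 and 4 were at 0 in the libraries of Col-0 −Glc, 4, 2 and 6 in those of Col-0 +Glc, and none in any ein2-5 library. The part of seed RNA in the results below was not tested. Counts are also given without the libraries with the most seed reads in groups where the libraries differed widely, Col-0 −Glc replicate 1 and ein2-5 +Glc replicates 2 and 3, called the set-aside libraries here. Setting them aside does not even out seed reads between groups, since the ein2-5 −Glc libraries hold more than the ein2-5 +Glc library that remains. That group then has 1 library, assumed to vary like those of the other groups, so lost calls also reflect fewer libraries. The library kept, ein2-5 +Glc replicate 1, was also the one least like its group. Its correlation on the log2(CPM + 1) scale was 0.9775 with replicate 2 and 0.9688 with replicate 3, while these had 0.9909 with each other. Values without the set-aside libraries therefore rest on this library for ein2-5 +Glc. For 11 root genes the summed level ran from 111.2 to 116.5 CPM in Col-0 −Glc and from 130.8 to 153.1 in Col-0 +Glc. For ein2-5 the ranges were 169.7 to 185.2 without and 229.3 to 256.3 with glucose, and none of the 11 was at 0 in any library. Of these 11 genes, 0 had a difference of responses past the threshold in limma, where 18.8% of all genes did. After TMM scaling 2 passed, both positive. Without ein2-5 +Glc replicate 1, 3 were positive and 1 negative, and without Col-0 +Glc replicate 3, 1 was negative. In whole seedlings, fewer cells of a type and less RNA per cell cannot be told apart.

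The response to glucose was wider in Col-0. Over all genes the SD of the log2 responses was 0.849 in Col-0 and 0.544 in ein2-5. From the 5th to the 95th percentile the Col-0 responses ran from −1.12 to 1.47 and the ein2-5 responses from −0.79 to 0.85. With glucose 40.6% of genes rose and 19.7% fell in Col-0, and 26.5% rose and 16.4% fell in ein2-5, with the values as deposited. The balance of rises and falls depends on the scaling. The median response was 0.189 in Col-0 and 0.086 in ein2-5 as deposited, and 0.012 and 0.033 after TMM scaling. The difference of the responses passed the threshold for 3678 genes (18.8% of those tested). It was positive for 1072 genes (5.49%) and negative for 2606 (13.3%). At a size of at least 1 on the log2 scale there were 329 positive (1.69%) and 665 negative genes (3.41%).

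That split into positive and negative calls depended on the scaling. With the values as deposited 29.1% of the calls were positive. After TMM scaling, which corrects for composition, 1873 genes were positive (9.59%) and 1794 negative (9.19%), so that 51.1% were positive. The median difference over all genes was −0.11 as deposited and 0.02 after TMM scaling. For this reason each list median is set against the all-gene median, and counts after TMM scaling are printed beside the main ones. Without the set-aside libraries 538 genes were positive and 1276 negative. Leaving out ein2-5 +Glc replicate 1 raised the positive genes of at least 1 on the log2 scale from 329 to 572.

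**Figure D1:**
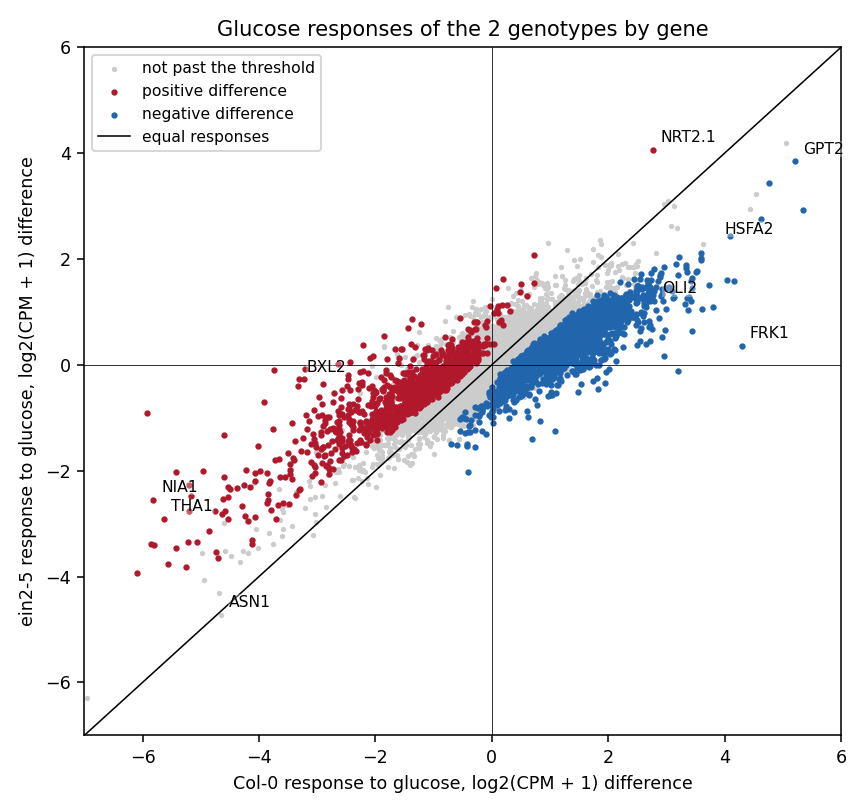
Glucose response in Col-0 (x axis) against that in ein2-5 (y axis), each as a log2(CPM + 1) difference over n = 3 libraries with and 3 without glucose, 1 point per gene. The line marks equal responses; red genes lie above it with a limma adjusted p below 0.05 and blue genes below it. NIA1, THA1 and BXL2 lie above the line, FRK1, HSFA2 and OLI2 below it, and ASN1 lies on it.

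Genes that mark sugar starvation showed positive differences. Of 26 measured markers, 19 passed the threshold with a positive difference and none with a negative one, against 5.49% and 13.3% of all genes, and the counts after TMM scaling were again 19 and 0. Their median difference was 1.62 above that of all genes, with a median response of −4.55 in Col-0 and −3.15 in ein2-5. That Col-0 response lay below the 5th percentile of all genes (−1.12). The share of positive differences among other genes with falls of that size was not counted. The median level of the list was 503, 558 and 482 CPM in the libraries of Col-0 −Glc and 15.1, 15.74 and 24.5 CPM in those of Col-0 +Glc. Among mutant libraries it was 172, 134 and 154 CPM without glucose and 20.9, 21.5 and 31.2 CPM with it. The genotypes were separate without glucose and overlapped with it. Of the list, 14 members passed without the set-aside libraries.

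BGAL4, a beta-galactosidase (AT5G56870, chromosome 5, 23003909 to 23009672 in TAIR10.1), stood at 588, 646 and 689 CPM in Col-0 −Glc and, after glucose, at 17.3, 13.8 and 18.3 CPM. The mutant libraries held 309, 216 and 225 CPM without glucose and 35.2, 32.3 and 40.3 CPM with it. It was lower in ein2-5 before glucose and higher after, with no overlap between genotypes in either condition. It fell by 5.21 in Col-0 and by 2.75 in ein2-5, a difference of 2.45 ± 0.20 (95% interval 2.02 to 2.89, limma adjusted p = 2.69e-05).

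THA1, a threonine aldolase, stood at 481, 495 and 417 CPM in Col-0 −Glc and, after glucose, at 8.51, 7.89 and 8.55 CPM. The mutant libraries held 27.3, 15.73 and 22.6 CPM without glucose and 1.66, 1.82 and 2.53 CPM with it. Here every ein2-5 library lay below every Col-0 library of the same condition. The difference of the responses was 2.73 ± 0.231 (limma adjusted p = 3e-05). STP1, a hexose transporter, was much closer in the presence of glucose: its means were 718 CPM in Col-0 −Glc, 34.0 in Col-0 +Glc, 183 in ein2-5 −Glc and 35.7 in ein2-5 +Glc. Its difference was 2.05 ± 0.199 (limma adjusted p = 5.5e-05), and the libraries of both genotypes overlapped with glucose.

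Other starvation markers spanned a wide range of differences. Glutamate dehydrogenase GDH2 had 2.15, the BTB and TAZ domain gene BT1 had 2.15, and the class II trehalose phosphate synthase genes TPS9, TPS11 and TPS10 had 2.00, 1.96 and 1.95, each past the threshold. The inositol oxygenase MIOX4 had 1.8, SEN1 had 1.44 and the proline dehydrogenase PRODH1 had 0.81, also past it. ASN1, the asparagine synthetase widely used as a starvation marker, was an exception in this list. Its mean level was 1214 CPM in Col-0 −Glc, 48.4 in Col-0 +Glc, 178 in ein2-5 −Glc and 5.70 in ein2-5 +Glc. The fitted responses were −4.66 and −4.72, and their difference was −0.06 ± 0.325 (limma adjusted p = 0.917). BT2 (1.42), TPS8 (1.60), DYL1 (0.95), J8 (0.89), ACBP3 (0.59) and EXL4 (0.14) did not pass the threshold either.

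**Figure D2:**
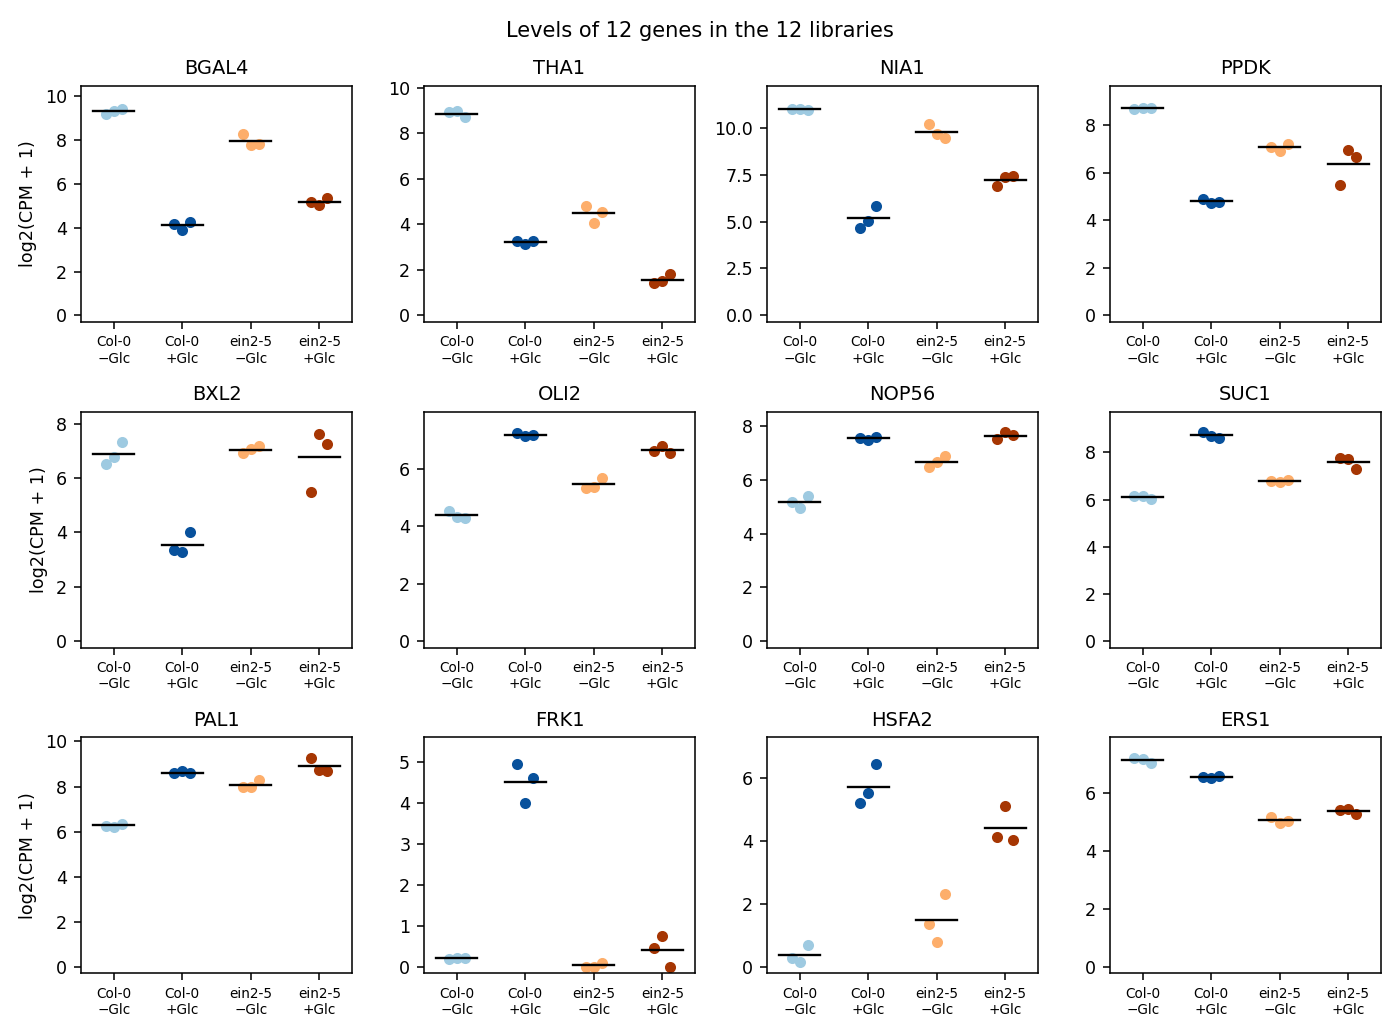
Level of 12 genes in each library, on the log2(CPM + 1) axis, by group on the x axis; points are libraries (n = 3 a group, replicates 1 to 3 from left to right) and bars are group means. BGAL4, THA1, NIA1 and PPDK drop further in Col-0 than in ein2-5, and OLI2, NOP56, SUC1 and PAL1 climb further in Col-0.

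The enzymes that break down branched-chain amino acids in the mitochondrion moved alike. Of 12 measured genes, 9 had a positive difference past the threshold and none a negative one, 10 and 0 after TMM scaling. The 9 genes make 75% of the list, against 5.49% of all genes. The median lay 1.55 above that of all genes. The median Col-0 response of the list, −2.51, also lay below the 5th percentile of all genes (−1.12). BCAT2, the aminotransferase of the first step, stood at 309, 334 and 271 CPM in Col-0 −Glc, at 4.11, 5.50 and 3.88 in Col-0 +Glc, at 24.6, 12.0 and 28.5 in ein2-5 −Glc, and at 0.491, 1.44 and 1.31 in ein2-5 +Glc. Every ein2-5 library was below every Col-0 library of its condition, and the difference of the responses was 2.40 ± 0.372 (limma adjusted p = 0.00096). For MCCB, a subunit of methylcrotonyl-CoA carboxylase, the libraries held 178, 212 and 198 CPM in Col-0 −Glc, 24.1, 25.5 and 22.2 in Col-0 +Glc, 83.9, 55.8 and 65.9 in ein2-5 −Glc and 36.8, 33.1 and 32.1 in ein2-5 +Glc. Its order between genotypes turned with glucose, and the difference was 2.01 ± 0.178 (limma adjusted p = 3.33e-05). The dehydrogenase subunits BCE2 (1.99) and DIN4 (1.81), MCCA (1.89) and isovaleryl-CoA dehydrogenase IVD (1.66) passed as well, whereas BCAT1 (−0.14), CHY1 (0.17) and D2HGDH (0.35) did not.

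Autophagy genes, which encode the machinery that delivers cell contents to the vacuole, were mostly below the threshold. Of 26 measured, 7 were positive (26.9%) and none negative, against 5.49% and 13.3% of all genes. Counts after TMM scaling were 9 and 0, and the median lay 0.26 above that of all genes. ATG8F, a ubiquitin-like protein of the autophagosome membrane, stood at 108, 106 and 104 CPM in Col-0 −Glc, 18.6, 16.4 and 20.5 in Col-0 +Glc, 99.2, 74.5 and 74.0 in ein2-5 −Glc and 28.6, 28.1 and 33.3 in ein2-5 +Glc. The genotypes did not overlap in either condition, and the difference was 1.04 ± 0.166 (limma adjusted p = 0.00114). ATG8H (0.96), ATG8E (0.90) and ATG5 (0.60) passed, while the kinase genes ATG1A (−0.03), ATG1B (0.06) and ATG1C (0.02) did not. The count rested on single libraries. It was 2 without Col-0 +Glc replicate 2, 3 without Col-0 −Glc replicate 1, Col-0 −Glc replicate 2, ein2-5 −Glc replicate 2 or ein2-5 +Glc replicate 3, 4 without Col-0 +Glc replicate 1 or ein2-5 −Glc replicate 3, and 2 without the set-aside libraries.

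Of 10 subunit and target genes of the energy kinases TOR and SnRK1 0 passed the threshold in limma, where 18.8% of all genes passed. By edgeR or after TMM scaling 0 passed as well, and 1 of the 10 had an unadjusted p below 0.05 in limma. Without Col-0 +Glc replicate 3, 1 of them was negative. Their differences lay between −0.28 and 0.19. TOR itself had means of 122, 122, 101 and 111 CPM in Col-0 −Glc, Col-0 +Glc, ein2-5 −Glc and ein2-5 +Glc, and KIN10, the catalytic subunit of SnRK1, had 52.1, 45.1, 49.99 and 42.4 CPM.

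**Figure D3:**
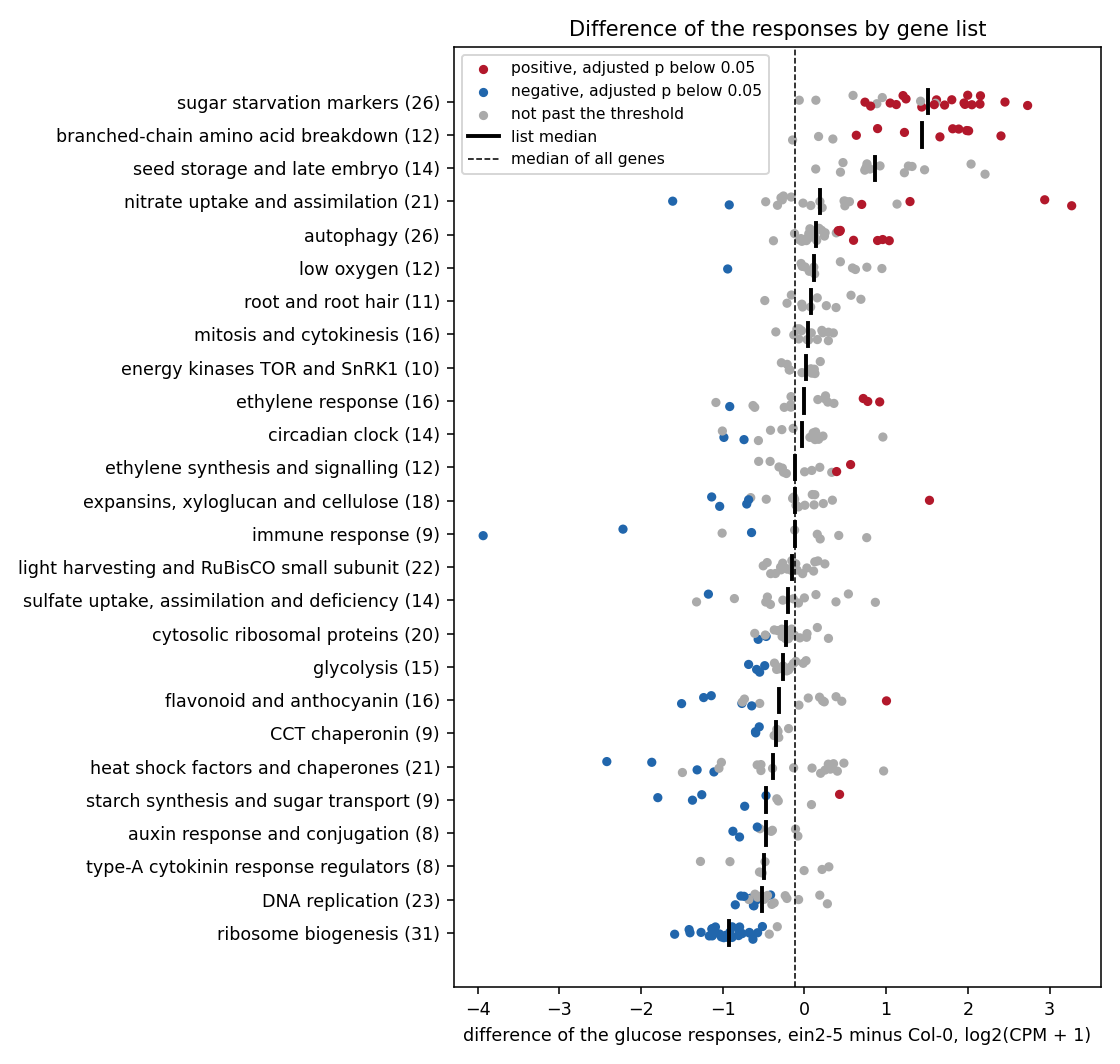
The ein2-5 response minus the Col-0 response, on the log2(CPM + 1) scale (x axis), for the measured members of 26 gene lists (number in brackets). Points are genes, red and blue where the limma adjusted p is below 0.05; starvation and branched-chain breakdown lists sit at the positive end and ribosome biogenesis at the negative end.

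Ribosome biogenesis genes, which build ribosomes in the nucleolus, showed negative differences. Of 31 measured, 29 were negative past the threshold and none positive, against 13.3% and 5.49% of all genes, and 27 and 0 after TMM scaling. The list's median lay 0.81 below that of all genes, with a median response of 1.79 in Col-0 and 0.84 in ein2-5. That Col-0 response lay above the 95th percentile of all genes (1.47). The share of negative differences among other genes with rises of that size was not counted. The median level of the list was 29.6, 27.3 and 29.3 CPM in Col-0 −Glc and 40.1, 43.3 and 54.6 CPM in ein2-5 −Glc, with no overlap. With glucose it was 96.1, 81.6 and 90.8 CPM in Col-0 and 88.3, 109 and 93.2 CPM in ein2-5, and the genotypes overlapped.

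OLI2, an RNA methyltransferase of the large ribosomal subunit, stood at 22.1, 19.2 and 18.7 CPM in Col-0 −Glc, 152, 139 and 142 in Col-0 +Glc, 38.9, 40.5 and 50.7 in ein2-5 −Glc and 98.6, 111 and 93.2 in ein2-5 +Glc. The mutant was higher before glucose and lower after it in every library. OLI2 rose by 2.79 in Col-0 and by 1.21 in ein2-5, a difference of −1.59 ± 0.152 (95% interval −1.92 to −1.26, limma adjusted p = 5.36e-05). For NOP56, a core protein of the box C/D small nucleolar particles, the libraries held 35, 29.6 and 40.6 CPM in Col-0 −Glc, 187, 178 and 191 in Col-0 +Glc, 86.8, 98.95 and 118 in ein2-5 −Glc and 181, 216 and 202 in ein2-5 +Glc. Its libraries overlapped between genotypes with glucose and not without it, and the difference was −1.40 ± 0.177 (limma adjusted p = 0.000296).

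The Pumilio protein gene APUM24 (−1.41) and NRPA1, the largest subunit of RNA polymerase I (−1.26), were the other 2 of the 4 largest differences in the list. NUC-L1, encoding nucleolin, had means of 265 and 1080 CPM in Col-0 and 469 and 927 CPM in ein2-5, without and with glucose, and a difference of −1.04 past the threshold. GAR1 (−0.43) and REIL1 (−0.33) were the 2 members that did not pass. The proteins of the finished ribosome did not follow to the same count: of 20 measured cytosolic ribosomal protein genes 2 passed, RPS6A (−0.57) and RPL5B (−0.47), both negative, and 1 after TMM scaling. The 2 genes make 10% of the list, against 13.3% of all genes. The count was 0 without the set-aside libraries, 5 without ein2-5 −Glc replicate 1, and 1 without any 1 of Col-0 −Glc replicates 1 and 2, Col-0 +Glc replicates 1 and 2, ein2-5 −Glc replicates 2 and 3 and ein2-5 +Glc replicate 2. Their median response was 0.68 in Col-0 and 0.46 in ein2-5. A difference between these lists was not tested.

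**Figure D4:**
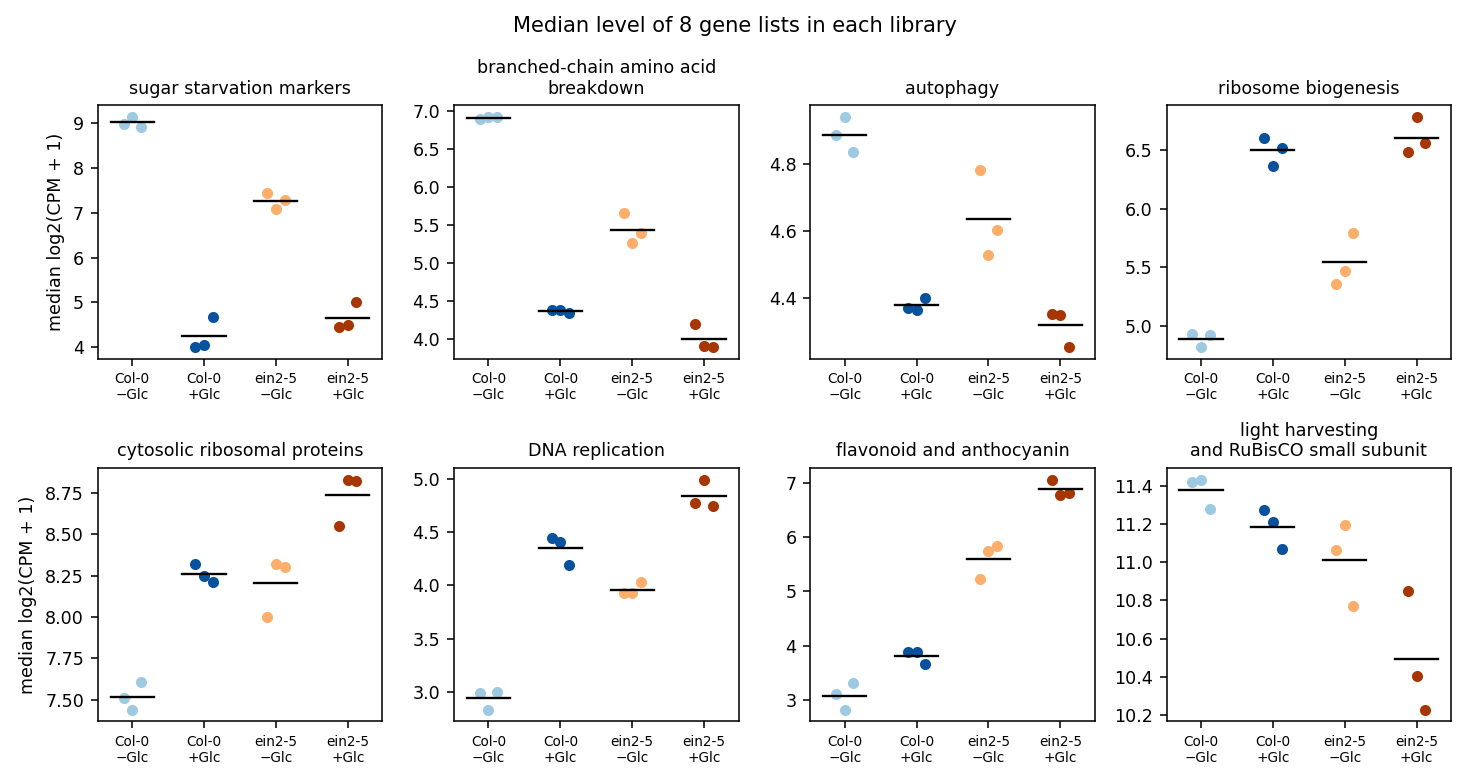
Median level of 8 gene lists in each library, on the log2(CPM + 1) axis, by group on the x axis; points are libraries (n = 3 a group, replicates 1 to 3 from left to right), bars their mean, and each panel has its own axis, which does not start at 0. For starvation markers and ribosome biogenesis the genotypes are separate without glucose and overlap with it.

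Short sequences known from sugar-responsive plant promoters were looked for in the 300 bases before the annotated start of 19351 genes (RefSeq annotation of TAIR10.1), on both strands. Among them were GATAAG and TATCCA, known from sugar-repressed promoters, TGGGCC and TGGGCT, which are forms of the site II element of growth genes, and the telo box AAACCCTA. The reverse complement of TATCCA ends in letters that open GATAAG, so a stretch can hold both. GATAAG stood in 12 of 26 starvation marker windows (46.2%), against 14.6% of all windows, and TATCCA in 10 (38.5%), against 16.7%. TATCCA stood in the same 38.5% of autophagy windows, and in 36.4% of those of the light harvesting and RuBisCO list, which held 0 calls. In the branched-chain breakdown list TATCCA stood in 8.33% of windows and GATAAG in 33.3%. Site II stood in 20 of 31 ribosome biogenesis windows (64.5%), against 24% of all, and the telo box in 6 (19.4%), against 4.36%. Site II also stood in 75% of the windows of the ribosomal protein list, which held few calls. Over the 329 positive genes of at least 1 on the log2 scale, GATAAG stood in 24.9%, TATCCA in 25.2% and the G box CACGTG in 14.9% (8.15% of all windows). Over the 664 windows of the negative genes of that size these shares were 13.6%, 13.1% and 7.38%. Site II stood in 19.6% of these negative windows and in 16.1% of the positive ones, both below the 24% of all windows, and the telo box in 4.97% and 2.74%. A match describes the letters, not binding.

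The windows below, from TAIR10.1, belong to the 2 members past the threshold with the most matches in each of these 2 lists, and show how closely the matches can lie. Capitals mark GATAAG and TATCCA on either strand in the starvation marker genes TPS11 (chr2:8108598-8108897, plus strand) and MIOX4 (chr4:13297395-13297694, plus strand). They mark site II and the telo box on either strand in the ribosome biogenesis genes NOP56 (chr1:20986953-20987252, minus strand) and REIL2 (chr2:10402935-10403234, minus strand). Each is written 5′ to 3′ on the strand of its gene.
TPS11: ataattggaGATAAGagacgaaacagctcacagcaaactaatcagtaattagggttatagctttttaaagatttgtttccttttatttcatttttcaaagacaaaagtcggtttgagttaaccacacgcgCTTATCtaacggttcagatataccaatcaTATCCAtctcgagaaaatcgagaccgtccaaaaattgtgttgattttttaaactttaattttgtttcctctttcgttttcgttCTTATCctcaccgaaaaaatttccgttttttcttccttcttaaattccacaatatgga
MIOX4: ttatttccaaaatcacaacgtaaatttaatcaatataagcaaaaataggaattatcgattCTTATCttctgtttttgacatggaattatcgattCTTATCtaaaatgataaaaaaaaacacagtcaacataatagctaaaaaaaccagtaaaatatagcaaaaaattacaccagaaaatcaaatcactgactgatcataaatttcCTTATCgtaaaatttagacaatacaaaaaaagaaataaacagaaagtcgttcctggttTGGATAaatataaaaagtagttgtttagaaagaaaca
NOP56: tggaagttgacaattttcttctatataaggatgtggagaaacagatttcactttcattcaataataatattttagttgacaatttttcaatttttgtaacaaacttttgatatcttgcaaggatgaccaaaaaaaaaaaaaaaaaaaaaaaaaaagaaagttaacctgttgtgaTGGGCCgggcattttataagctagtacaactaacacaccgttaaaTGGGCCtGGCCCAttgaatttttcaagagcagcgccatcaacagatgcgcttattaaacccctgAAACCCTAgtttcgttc
REIL2: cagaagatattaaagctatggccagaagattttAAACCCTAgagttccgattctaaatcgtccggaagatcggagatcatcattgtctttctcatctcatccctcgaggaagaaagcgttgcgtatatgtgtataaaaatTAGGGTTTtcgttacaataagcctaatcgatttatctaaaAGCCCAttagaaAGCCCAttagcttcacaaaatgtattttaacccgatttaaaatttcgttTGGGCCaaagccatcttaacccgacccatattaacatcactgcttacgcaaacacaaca

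TPS11 held 3 matches to GATAAG and 1 to TATCCA, and so did MIOX4. In NOP56, whose difference is given above, the telo box lay 10 to 17 bases before the annotated start. The difference of REIL2, a protein of late ribosome assembly, was −0.57 and past the threshold.

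The largest positive differences among genes with a symbol fell outside the starvation list. CYP81D11, a cytochrome P450, stood at 55.1, 64.5 and 50.5 CPM in Col-0 −Glc, 0.298, 0.289 and 0.401 in Col-0 +Glc, 8.92, 9.46 and 18.6 in ein2-5 −Glc and 0.859, 3.40 and 2.70 in ein2-5 +Glc. Its 3 libraries of Col-0 +Glc were close to the level of 3 reads, so the size of its Col-0 fall depends on the pseudocount. The difference was 3.41 ± 0.416 (limma adjusted p = 0.000239). NIA1, the next gene, and NIA2 encode nitrate reductase, the first enzyme of nitrate assimilation; they are close copies, so reads may have been split between them. NIA1 stood at 2045, 2050 and 1956 CPM in Col-0 −Glc, 24.5, 31.1 and 55.3 in Col-0 +Glc, 1164, 809 and 703 in ein2-5 −Glc and 118, 162 and 170 in ein2-5 +Glc. The genotypes changed order with glucose without overlap, and the difference was 3.27 ± 0.355 (limma adjusted p = 0.000105). NIA2 had 2.94 ± 0.302, with means of 2392, 66.4, 1068 and 218 CPM in the same order of groups.

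In the whole list of nitrate uptake and assimilation, NIA1 and NIA2 included, 4 of 21 measured genes were positive and 2 negative, 5 and 2 after TMM scaling. That is 19% positive and 9.5% negative, against 5.49% and 13.3% of all genes. GLT1, a glutamate synthase, had 0.70. The transporter NRT2.1 went up with glucose in both genotypes, from 0.143, 0.286 and 0.172 to 6.67, 7.53 and 7.35 CPM in Col-0 and from 0.549, 0.666 and 0.532 to 27.7, 26.5 and 22.3 CPM in ein2-5. Its difference was 1.29 ± 0.17 in limma (adjusted p = 0.000364), but 0.49 by edgeR on the reads (adjusted p = 0.582). The negative members were the transporters NRT1.5 (−1.61) and NRT1.1 (−0.92). The positive count was 8 without Col-0 +Glc replicate 3, and the negative count was 4 without ein2-5 +Glc replicate 1.

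Some genes began alike in both genotypes and parted with glucose. BXL2, a beta-xylosidase acting on cell walls, stood at 90.3, 109 and 159 CPM in Col-0 −Glc and at 119, 132 and 145 CPM in ein2-5 −Glc. With glucose it stood at 9.29, 8.69 and 15.3 CPM in Col-0 and at 43.9, 193 and 150 CPM in ein2-5. The genotypes overlapped without glucose and not with it, and replicate 1 of ein2-5 +Glc was the low library. BXL2 fell by 3.32 in Col-0, the ein2-5 response of −0.27 did not pass the threshold (limma adjusted p = 0.623), and the difference was 3.05 ± 0.584 (adjusted p = 0.0034), or 3.69 without that replicate and 1.94 without the set-aside libraries.

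PPDK, pyruvate orthophosphate dikinase, which makes phosphoenolpyruvate from pyruvate, had the same low library. Its levels were 410, 424 and 425 CPM in Col-0 −Glc, 28.7, 25.8 and 25.9 in Col-0 +Glc, 134, 118 and 146 in ein2-5 −Glc and 43.8, 122 and 100 in ein2-5 +Glc. In ein2-5 the groups with and without glucose overlapped. The difference was 3.23 ± 0.368 (limma adjusted p = 0.000146), or 3.67 without that library and 2.37 without the set-aside libraries.

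Other genes ended alike with glucose and differed before it. IAGLU, which joins glucose to the auxin indole-3-acetic acid, stood at 66.8, 53.6 and 35.5 CPM in Col-0 −Glc and at 8.57, 7.73 and 8.58 CPM in ein2-5 −Glc. With glucose it stood at 6.96, 4.99 and 5.75 CPM in Col-0 and at 6.07, 7.04 and 5.75 CPM in ein2-5, which overlapped. Its difference was 2.55 ± 0.261 (limma adjusted p = 7.88e-05). MGL, a methionine gamma-lyase, had 2.18 and UGT73B2, a flavonoid glucosyltransferase, had 1.91 in the same form. HSPRO2 also had it, at 2.03, but its call was lost when any 1 of 9 of the 12 libraries was left out, with values of 1.51 to 2.18.

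Further large positive differences with a symbol were those of the peptide hormone precursor gene PSK2 (2.66), the oxysterol-binding protein gene ORP4C (2.48), the glutamine amidotransferase-like gene GAT1_2.1 (2.47) and TDT, the malate transporter of the vacuole (2.47). List members with smaller positive differences were SUC2 (0.43), which loads sucrose into the phloem, and TCH4 (1.53), a xyloglucan-modifying enzyme. All passed the threshold in limma. PSK2 stood at 0.206, 0.133 and 0.304 CPM in ein2-5 −Glc and at 0.368, 0.0757 and 0.262 CPM in ein2-5 +Glc. These levels are close to that of 3 reads, so PSK2 had little room to fall in the mutant. GAT1_2.1 stood at 0.238, 0.507 and 0.2 CPM in Col-0 +Glc, also close to it, so the size of its Col-0 fall depends on the pseudocount.

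The largest negative difference was that of FRK1, a receptor kinase gene induced by bacterial flagellin. It stood at 0.143, 0.172 and 0.172 CPM in Col-0 −Glc and at 29.8, 14.9 and 23.3 CPM in Col-0 +Glc. In the mutant it was listed at 0, 0 and 0.076 CPM without glucose and at 0.368, 0.681 and 0 CPM with it. Only the Col-0 +Glc libraries were above 1 CPM. The difference was −3.93 ± 0.318 in limma (adjusted p = 2.69e-05). Count tests on the recovered reads gave −3.36 by edgeR (adjusted p = 0.483) and −3.13 by DESeq2, neither past the threshold.

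The immune list held 9 measured genes, of which 3 were negative (2 after TMM scaling, 0 by edgeR) and none positive. The 3 genes make 33.3% of the list, against 13.3% of all genes. The positive count was 2 without Col-0 −Glc replicate 1. Besides FRK1 the negative genes were CRK12 (−2.22) and EDS1 (−0.65). CRK12, a cysteine-rich receptor-like kinase gene, stood at 2.21, 1.49 and 1.26 CPM in Col-0 −Glc, 41.2, 37.7 and 24.9 in Col-0 +Glc, 0.754, 0.733 and 0.532 in ein2-5 −Glc and 5.58, 4.77 and 1.83 in ein2-5 +Glc. All Col-0 +Glc libraries were above all others, and by edgeR its adjusted p was 0.0695. The family members CRK5 (−2.34) and CRK30 (−2.17) passed in both tests. These kinase genes lie in clusters of similar copies, and reads may have been split between copies.

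Transporter genes stood among the large negative differences. ABCG8, of the ABC transporter family, stood at 1.57, 1.89 and 2.06 CPM in Col-0 −Glc and 1.72, 1.73 and 1.06 in ein2-5 −Glc, which overlapped. With glucose it stood at 45.9, 44.6 and 45.8 CPM in Col-0 and at 6.13, 6.36 and 7.24 CPM in ein2-5. It rose in both genotypes, by 4.03 and 1.61, and the difference was −2.43 ± 0.183 (limma adjusted p = 2.32e-05). The nitrate transporter gene NRT2.6 had −3.31 ± 0.506. NRT2.5 was listed at 0 in the 3 libraries of Col-0 −Glc and at 7.32, 5.93 and 7.02 CPM in Col-0 +Glc, and in ein2-5 it reached 0.245 CPM at most. Its difference was −2.78 ± 0.192 in limma (adjusted p = 2.04e-05), with an edgeR adjusted p of 0.081. The ion exchanger gene CHX16 had −2.08, past the threshold in limma and edgeR. Also among the 12 largest negative differences were the signal peptide gene RGF9 (−2.80), SHB1 (−2.41) and the cellulose synthase-like gene CSLA11 (−2.27).

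Among genes of sugar use, SUC1, GPT2 and GBSS1 had negative differences. Of 9 genes of starch synthesis and sugar transport, 5 were negative (55.6%, against 13.3% of all genes) and 1 positive, 4 and 1 after TMM scaling, and 3 and 0 without the set-aside libraries. SUC1, a sucrose-proton symporter, stood at 71.1, 69.3 and 64.8 CPM in Col-0 −Glc, 467, 412 and 392 in Col-0 +Glc, 110, 105 and 112 in ein2-5 −Glc and 218, 211 and 155 in ein2-5 +Glc. The mutant was higher before and lower after glucose in every library, and the difference was −1.79 ± 0.166 (limma adjusted p = 4.31e-05). GPT2, which brings glucose 6-phosphate into plastids, had means of 0.591 and 58.6 CPM in Col-0 and 4.48 and 76.2 CPM in ein2-5 and a difference of −1.37. GBSS1, a starch synthase, had −1.26. In glycolysis 4 of 15 genes were negative (26.7%), among them the phosphoglycerate mutase IPGAM2 (−0.68) and the hexokinase HXK2 (−0.55). That count was 2 after TMM scaling, 0 without the set-aside libraries, and 2 when Col-0 −Glc replicate 1 or 2, Col-0 +Glc replicate 1 or 2, ein2-5 −Glc replicate 3 or ein2-5 +Glc replicate 2 or 3 was left out.

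Flavonoid genes were mostly on the negative side or below the threshold, with 31.2% negative and 6.2% positive, against 13.3% and 5.49% of all genes. Of 16 measured, 5 were negative and 1 positive, also after TMM scaling, and 2 and 1 without the set-aside libraries. PAL1, the entry enzyme of phenylpropanoid synthesis, stood at 76.1, 73.9 and 80.4 CPM in Col-0 −Glc, 390, 408 and 382 in Col-0 +Glc, 250, 248 and 308 in ein2-5 −Glc and 619, 431 and 412 in ein2-5 +Glc. The mutant was higher in every library of each condition, and the difference was −1.50 ± 0.195 (limma adjusted p = 0.000338). Flavonol synthase FLS1 had −1.23. The late anthocyanin enzyme genes DFR (−0.07), LDOX (0.24) and UGT79B1 (0.46) did not pass. TT8, a regulator of late anthocyanin genes, was the positive member at 1.00 ± 0.223 (limma adjusted p = 0.00791).

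In the heat shock list 4 of 21 genes were negative (19%, against 13.3% of all genes), and 4 after TMM scaling. HSFA2, a heat shock transcription factor, stood at 0.214, 0.115 and 0.630 CPM in Col-0 −Glc, 36.1, 44.7 and 85.5 in Col-0 +Glc, 1.58, 0.733 and 4.03 in ein2-5 −Glc and 16.6, 33.2 and 15.3 in ein2-5 +Glc. All 3 libraries of Col-0 +Glc were above all others, and the difference was −2.42 ± 0.557 (limma adjusted p = 0.00952). HSP70 (−1.87), HSP23.5 (−1.31) and FES1A (−1.11) passed too. The count was 2 by edgeR and without ein2-5 −Glc replicate 3. Of the 9 CCT chaperonin subunits, which fold cytoskeletal proteins, CCT4 (−0.60), CCT6B (−0.60) and CCT8 (−0.55) were negative past the threshold, also after TMM scaling, and the other 6 lay between −0.37 and −0.19. Without ein2-5 −Glc replicate 1, 6 subunits passed.

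Cell cycle lists differed in their counts. Of 23 DNA replication genes 9 were negative (39.1%, against 13.3% of all genes) and none positive, but after TMM scaling 2 were negative. Among the 9 were the sliding clamp gene PCNA1 (−0.85) and the helicase subunit gene MCM2 (−0.78). PCNA1 had means of 4.03 and 17.1 CPM in Col-0 and 13.2 and 27.6 CPM in ein2-5, without and with glucose. The count was 1 without Col-0 −Glc replicate 2, 2 without Col-0 +Glc replicate 1 or ein2-5 −Glc replicate 3, 3 without Col-0 +Glc replicate 2, ein2-5 +Glc replicate 3 or the set-aside libraries, and 5 without ein2-5 −Glc replicate 2. Of 16 mitosis and cytokinesis genes none passed in limma, where 18.8% of all genes did, and none by edgeR or after TMM scaling. None of the 16 had an unadjusted p below 0.05 in limma, and their differences lay between −0.35 and 0.35.

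In the ethylene pathway itself receptor genes were among the positive calls. Of 16 ethylene response genes 3 were positive (18.8%, against 5.49% of all genes) and 1 negative, 3 and 0 after TMM scaling. ERS1, an ethylene receptor that ethylene itself induces, stood at 150, 143 and 131 CPM in Col-0 −Glc, 94.0, 90.5 and 97.0 in Col-0 +Glc, 35.4, 30.4 and 32.1 in ein2-5 −Glc and 42.3, 43.5 and 38.5 in ein2-5 +Glc. It fell by 0.58 in Col-0 and rose by 0.34 in ein2-5, each without overlap, and the difference was 0.92 ± 0.118 (limma adjusted p = 0.000313). The receptor ERS2 (0.72) and RTE1 (0.78), a regulator of the receptor ETR1, were positive in the same fit. RAV1 (−0.91) was the negative member, at −0.60 and below the threshold without the set-aside libraries; 2 genes were negative without ein2-5 +Glc replicate 1. In the signalling list of 12 genes the kinase CTR1 (0.56) and ETO1 (0.39), which limits ethylene synthesis, were positive (16.7% of the list), and 3 genes after TMM scaling. Neither passed without the set-aside libraries, and ETO1 lost its call without any 1 of 9 of the 12 libraries.

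In the auxin list 3 of 8 genes were negative (37.5%, against 13.3% of all genes), 1 after TMM scaling, led by IAA1 (−0.88), and 0 without the set-aside libraries or 1 without Col-0 −Glc replicate 2 or Col-0 +Glc replicate 2. In the wall list of 18 genes 4 were negative (22.2%), 3 after TMM scaling, among them the expansins EXPA5 (−1.14) and EXPA8 (−1.04); it was 2 without the set-aside libraries, Col-0 −Glc replicate 2, Col-0 +Glc replicate 1 or ein2-5 −Glc replicate 2. The clock list of 14 had ELF4 (−0.98) and GI (−0.74), of which ELF4 passed after TMM scaling and GI lost its call without the set-aside libraries and without any 1 of 8 of the 12 libraries. ELF4, a repressor in the evening complex, stood at 110, 101 and 85.1 CPM in Col-0 −Glc, 213, 173 and 186 in Col-0 +Glc, 94.2, 89.6 and 85.2 in ein2-5 −Glc and 89.2, 86.0 and 86.7 in ein2-5 +Glc. Only the Col-0 +Glc libraries stood apart. ELF4 and GI make 14.3% of the clock list, near the 13.3% of all genes that were negative. Of 14 sulfate genes the reductase APR2 (−1.18) passed, and of 12 low oxygen genes PDC2 (−0.94), a pyruvate decarboxylase. That is 7.1% and 8.3% of these lists, below the 13.3% of all genes. Each list kept a count of 1 negative after TMM scaling. APR2 lost its call without the set-aside libraries and without any 1 of 7 libraries. The sulfate list had 4 negative genes without ein2-5 +Glc replicate 2, 2 without Col-0 +Glc replicate 3 or ein2-5 −Glc replicate 1, and 1 positive gene without ein2-5 −Glc replicate 2 or ein2-5 +Glc replicate 1. In the low oxygen list 4 genes were positive without ein2-5 +Glc replicate 1.

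In the light harvesting and RuBisCO list (22 measured) and among the type-A cytokinin regulators (8 measured) 0 genes passed in limma. By edgeR or after TMM scaling 0 passed as well. Over all genes 18.8% passed in limma. Of the list members, 0 and 3 had an unadjusted p below 0.05 in limma. Without ein2-5 +Glc replicate 1, 3 and 1 were negative, and without Col-0 +Glc replicate 3, 2 cytokinin regulators were. With a replicate block in the limma fit, 3 cytokinin regulators were negative. The 14 seed genes had no call with all libraries, yet 6 were positive without ein2-5 +Glc replicate 1, the library with the fewest seed reads in its group. The set-aside libraries were chosen by the level of these same genes. Calls of seed genes without those libraries follow from that choice and are not read as a result.

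Of the 92 genes named by rule, 21 lost their call when some single library was left out. Besides those given above these were ATG8E, ATG5, HSP23.5 and MCM2 (6 libraries each), EXPA5, EXPA8, RPL5B and the MYB gene PAP2 (7 each), the auxin-conjugating enzyme gene GH3.2 (8), and EDS1, MCM3, PFK7 and PGK3 (9 each). CDT1A lost it without any 1 of 3 libraries, PCNA1 without Col-0 −Glc replicate 2 or ein2-5 −Glc replicate 3, IAA1 without Col-0 −Glc replicate 2 or Col-0 +Glc replicate 2, and FES1A without ein2-5 −Glc replicate 3. BGAL4, THA1, NIA1, OLI2, NOP56, SUC1, PAL1 and ERS1 passed in each of these fits.

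**Figure D5:**
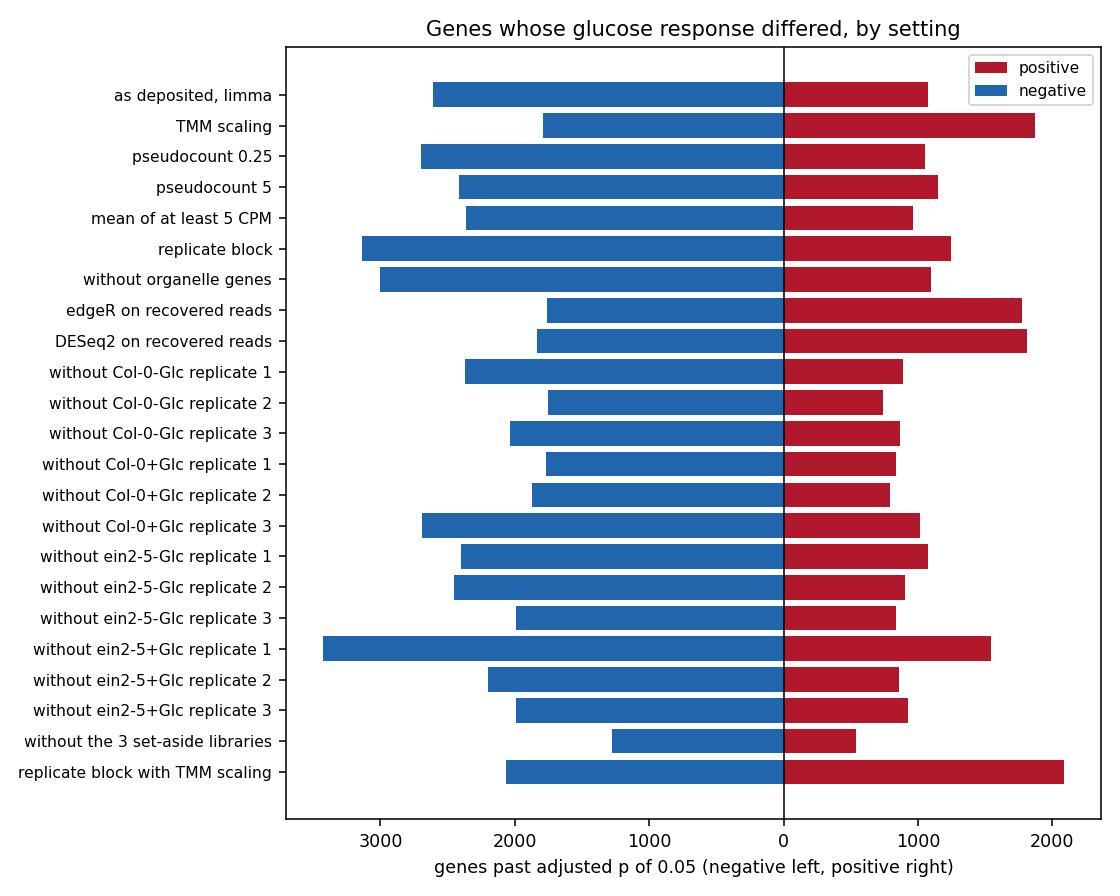
Number of genes past an adjusted p of 0.05 (x axis, negative differences to the left and positive to the right of 0) under each setting (y axis). As deposited, limma called 1072 positive and 2606 negative genes, and the TMM, edgeR and DESeq2 bars are near to equal on both sides.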

How the data were processed

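Messenger RNA libraries of 4-day seedlings were used, 12 in 4 groups of 3, grouped by sample title because the treatment field names glucose for all of them. Per the submitters' processing notes, TopHat and HTSeq were used with the TAIR10 build; versions and strand setting are not given in the sources used here. The authors deposited a table of 19522 genes in CPM, a unit read from the values, since each column sums to 1000000. Divided by the smallest step of its column, each value came out whole (tolerance 0.01 reads), so reads were recovered.

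From these, limma 3.58.1 (R 4.3.3) was fitted to log2(CPM + 1) with 4 group means and 8 residual degrees of freedom, with no filter added. Every gene of the deposited table reached at least 1.063 CPM in some library. Genes below that level are absent, and shares of all genes refer to this set. Alternatives used TMM scaling, pseudocounts of 0.25 and 5, a mean of at least 5 CPM, no organelle genes, a replicate block, each library left out, and edgeR 4.0.16 or DESeq2 1.42.0 on the recovered reads. The fit was tested on simulated data. Leaving out the set-aside libraries, and the block with TMM scaling, were added after seeing the data.

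Gene lists (26, with 413 of 437 members measured) and comparisons were chosen with earlier results of these data known. Named genes were the 12 largest positive and negative differences with a symbol and at least 5 CPM in the highest group, up to 4 members past the threshold per list, genes by form (within 0.3 on the log2 scale between genotypes in a condition, or opposite responses; 5 each) and EIN2; other list members named were chosen after their values were seen. Names came from RefSeq TAIR10.1, which matched 19352 locus codes.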

Additional observations from a re-analysis of the deposited data

Results flagged for a closer look

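The responses of the genotypes differed past the threshold in the test of the difference itself for 1072 genes with a positive and 2606 with a negative difference (limma, adjusted p below 0.05). Among these, 9 genes with a difference of at least 1 on the log2 scale, a symbol and at least 5 CPM in the highest group had responses past the threshold in both genotypes with opposite signs, 3 with a positive and 6 with a negative difference. The 5 largest follow.

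ASPGB1, an asparaginase gene, stood at 10.4, 11.4 and 11.3 CPM in Col-0 −Glc, 3.87, 3.33 and 3.81 in Col-0 +Glc, 3.91, 4.60 and 4.03 in ein2-5 −Glc and 5.34, 11.7 and 9.24 in ein2-5 +Glc. It fell in Col-0 and rose in ein2-5 without overlap, and the difference was 2.23 ± 0.275 (limma adjusted p = 0.000253). ERF2, an ethylene response factor gene, stood at 2.50, 3.67 and 4.12 CPM in Col-0 −Glc, 8.57, 8.11 and 6.62 in Col-0 +Glc, 1.72, 1.8 and 1.67 in ein2-5 −Glc and 1.04, 0.530 and 0.959 in ein2-5 +Glc. It rose in Col-0 and fell in ein2-5 without overlap, with a difference of −1.57 ± 0.234 (limma adjusted p = 0.000769).

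CRF6, a cytokinin response factor gene, had a difference of −1.54, rising in Col-0 and falling in ein2-5. The amino acid permease gene AAP4 had 1.43 and the glutathione transferase gene GSTU24 had 1.34, both falling in Col-0 and rising in ein2-5 (limma). For GSTU24 the ein2-5 response of 0.53 was close to the threshold (limma adjusted p = 0.0489), and its ein2-5 libraries with and without glucose overlapped. The Col-0 response of AAP4, −0.55, was also close to it (limma adjusted p = 0.0438).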

How the results depend on the processing

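The counts of 1072 positive and 2606 negative genes became 1873 and 1794 after TMM scaling, 1776 and 1763 by edgeR, 1810 and 1832 by DESeq2, and 538 and 1276 without the set-aside libraries. Leaving out 1 library at a time gave 741 to 1541 positive and 1755 to 3429 negative genes. At a size of at least 1, the 329 positive genes became 218 with a pseudocount of 5, 553 by edgeR, 572 by DESeq2 and 295 to 572 without 1 library, and the 665 negative genes became 255 with a pseudocount of 5. The median difference of −0.111 became 0.018 with TMM scaling, −0.133 and −0.068 with pseudocounts of 0.25 and 5, 0.010 by edgeR, 0.006 by DESeq2 and −0.134 to −0.091 without 1 library. Same-numbered libraries of different groups deviated together in 12 of 18 pairs (r above 0.1; range −0.302 to 0.611), and all 3 same-numbered pairs did so for ein2-5 −Glc with ein2-5 +Glc and for Col-0 +Glc with ein2-5 −Glc; since the other 6 pairs did not and no label gives the numbers a meaning, the main values carry no block. The replicate block gave 1248 positive and 3136 negative genes, with 7 negative heat shock, 4 clock, 3 ethylene response and 3 type-A cytokinin genes, against 4, 2, 1 and 0, and 1 positive clock and 1 negative root gene against 0; the block with TMM scaling gave 2087 and 2062, with a median of 0.018. Of the 92 named genes, 11 lost their call with TMM scaling, 18 by edgeR, 8 by DESeq2 and 27 without the set-aside libraries, and 2 to 19 when 1 library was left out. The interaction of EIN2, which was not called, changed sign without ein2-5 −Glc replicate 2 (−0.051; 0.09 with all libraries, 0.038 to 0.181 without each of the other libraries). A mean of at least 5 CPM kept 84 of the named genes, all with their call or lack of it. Apart from the construction of each setting, the cause was not tested. With 3 libraries a group, differences of low genes rest on few reads.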

Other observations

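Gene families outside the lists were counted by their RefSeq product names after the values had been seen, as descriptions with no test. Of 43 measured genes of the SAUR family, small auxin-induced genes of growing organs, 18 had a negative difference past the threshold and 3 a positive one (16 and 3 after TMM scaling), or 41.9% negative against 13.3% of all genes. SAUR63 had means of 0.658 CPM in Col-0 −Glc, 5.46 in Col-0 +Glc, 1.56 in ein2-5 −Glc and 1.41 in ein2-5 +Glc, with a difference of −2.08 ± 0.283 (limma adjusted p = 0.000475). SAUR20 (−1.83) and SAUR15 (−1.78) were negative past the threshold as well. These genes were at low levels and are similar in sequence, so reads may have been split between copies.

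Counts of receptor-like kinase genes stood as follows, where 13.3% of all genes were negative and 5.49% positive. Of 97 genes with the product name of leucine-rich repeat protein kinases 34 were negative and none positive (25 and 0 after TMM scaling), and of 17 S-locus lectin kinases 7 and 0 (6 and 0). Of 22 genes named as leucine-rich receptor-like protein kinases 9 were negative and none positive (4 and 0). Shares of negative genes were lower in these kinase families: 5 negative and 1 positive (5 and 3) of 25 concanavalin A-like lectin kinases, and 42 and 10 (31 and 24) of 245 genes named as protein kinase superfamily. Of 22 cysteine-rich receptor-like kinases 9 were negative and none positive (7 and 0), and CRK13 had means of 2.69, 13.5, 0.545 and 0.713 CPM in Col-0 −Glc, Col-0 +Glc, ein2-5 −Glc and ein2-5 +Glc, with a difference of −1.81 ± 0.331 (limma adjusted p = 0.00252). Of 40 MATE efflux genes 8 were positive and 6 negative (9 and 4).

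The largest positive difference among all genes belonged to AT4G25580, a locus without a symbol in the reference, singled out after its value was seen. Its means were 72.9 CPM in Col-0 −Glc, 0.212 in Col-0 +Glc, 11.8 in ein2-5 −Glc and 7.09 in ein2-5 +Glc, and the difference was 5.02 ± 0.642 (limma adjusted p = 0.000313). The Col-0 +Glc mean was close to the level of 3 reads, so the size of the Col-0 fall depends on the pseudocount. Of 112 chloroplast-encoded genes 1 was negative and none positive, against 13.3% and 5.49% of all genes. Their median difference was −0.77, against −0.11 over all genes, while the share of chloroplast reads ran from 1.06% to 4.78% over the libraries.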
